A study of Mus musculus with 6 samples.

Results

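Immediate early genes and Klf response genes were followed in tail (caudal) arteries of Notch3-/- and Notch3+/+ mice. Arterial smooth muscle cells carry the Notch3 receptor, a member of the Notch family. All mice were 4 weeks old (postnatal day 28), and the 3 Notch3-/- and 3 Notch3+/+ RNA samples were each made from arteries pooled over several mice and hybridised to 1 Mouse MOE430.2 Affymetrix array. Each Notch3-/- pool and Notch3+/+ replicate 1 held 4 mice, and Notch3+/+ replicates 2 and 3 held 3. The labels describe neither the targeted allele nor the strain, sex or time of dissection. The 44 members were chosen by symbol, and among the probe sets annotated with that symbol alone, the brightest over the 6 arrays stands for the gene. All 44 were on the array, out of 18193 genes. Levels are log2 values, so a difference of 1 is a 2-fold change, and all differences are Notch3-/- minus Notch3+/+ unless stated. A level filter, which kept probe sets with a 6-array mean of at least 3.82, passed 41 members and 12732 genes. Fosb, Fosl1 and Arc, with means of 2.87, 3.78 and 3.05, did not pass and were not tested.

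Immediate early genes are transcribed within minutes of a stimulus from factors already present in the cell, without new protein synthesis. Growth factors, stretch, injury and stress reach them through MAP kinases, serum response factor and CREB. Their products are transcription factors, such as the AP-1, Egr and Nr4a proteins, and inhibitors that shut the signal off again, such as dual specificity phosphatases and RNA-destabilising proteins. Cutting and handling tissue is a known inducer of these genes, so their level in a dissected artery depends on how and how fast it was taken. The Klf factors are zinc finger proteins: Klf2 and Klf4 respond to blood flow in endothelium, Klf4 and Klf5 act in smooth muscle that changes its phenotype, and Klf9 and Klf15 are induced by glucocorticoids.

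The arrays correlated at r between 0.990 and 0.996 across probe sets, and the first principal component, with 45.2% of the variance, placed Notch3-/- replicate 2 at 39.5 and the other arrays between -17.1 and 5.85. Notch3 read 6.51, 6.44 and 5.87 in the Notch3-/- pools, against 9.94, 9.95 and 10.09 in the Notch3+/+ pools, on the brighter of its 2 probe sets. All 8 smooth muscle markers passed the level filter, with 6-pool means between 7.42 and 13.23. The labels call the pools biological replicates, so the p-values measure the spread between pools of mice.

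Within the Notch3+/+ arteries, the members were higher in replicate 1. Of the 44 members, 31 (70.5%) read higher in Notch3+/+ replicate 1 than in both other Notch3+/+ pools, against 29.3% of all 18193 genes. The median member lay 0.21 higher in replicate 1 than the mean of replicates 2 and 3, beside -0.01 over all genes. In the Notch3-/- arteries no pool held the top place as often. Replicates 1, 2 and 3 were the highest Notch3-/- pool for 11, 21 and 14 members (25.0%, 47.7% and 31.8%), ties counted in each. Over all genes, counted likewise, the shares were 39.6%, 39.7% and 30.3%. In RNA of whole arteries, more cells of a type and more RNA per cell cannot be told apart. The members also spread more widely over the 6 pools. Their median distance between highest and lowest pool was 0.54, against 0.34 over all genes, and it reached 1 or more in 9 of 44 members (20.5%), against 2.47% of all genes.

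**Figure D1:**
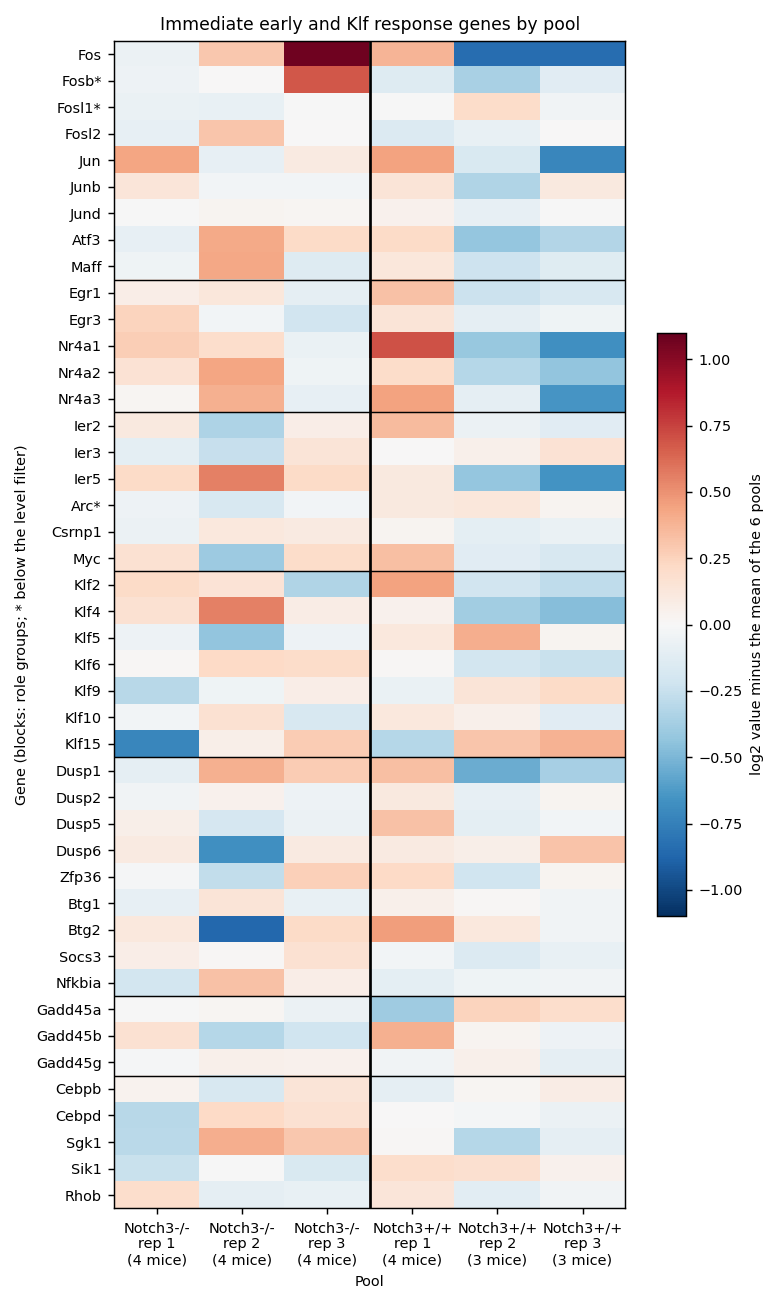
Each row is 1 of the 44 members and each column 1 pool, and colour gives the log2 value minus the mean of the member's 6 pools, red above and blue below. Notch3+/+ replicate 1 is red for most rows and Notch3+/+ replicates 2 and 3 are blue for most immediate early genes, while Klf9, Klf15 and Gadd45a have the opposite colours.

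Among AP-1 genes, Fos varied most of all members. It encodes the partner of Jun in the classical AP-1 dimer. Fos read 6.96, 7.32 and 8.10 in the Notch3-/- pools, against 7.40, 6.19 and 6.19 in the Notch3+/+ pools. All 3 Notch3-/- pools exceeded the 2 lower Notch3+/+ pools, but Notch3+/+ replicate 1 lay among them, so the genotypes overlapped. The highest and lowest pools differed 3.76-fold. The genotype difference was 0.87 (SE 0.39), with an adjusted p of 0.465 in limma. Fosb, the related gene below the level filter, read 2.81, 2.87 and 3.55 in the Notch3-/- pools, against 2.73, 2.51 and 2.74 in the Notch3+/+ pools, and Fos and Fosb shared their highest pool, Notch3-/- replicate 3.

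Jun read 8.53, 8.01 and 8.20 in Notch3-/- arteries, against 8.54, 7.93 and 7.38 in Notch3+/+ arteries. Its highest pool was Notch3+/+ replicate 1 and its second highest, within 0.01 of it, was Notch3-/- replicate 1. Atf3, a stress-induced partner of Jun, read 6.21, 6.72 and 6.51 in Notch3-/- arteries, against 6.51, 5.88 and 5.98 in Notch3+/+ arteries. For Atf3 and Jun too, every Notch3-/- pool lay above Notch3+/+ replicates 2 and 3. Jund, the most constant of the Jun genes, had a range of 0.14 over all 6 pools, from 9.55 to 9.69. Junb and the small Maf gene Maff had ranges of 0.47 and 0.65, and Fosl2 and Fosl1 had ranges of 0.46 and 0.29. All 7 AP-1 members tested had differences above 0, from 0.03 to 0.87, and adjusted p in limma of 0.465 or more.

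The Egr and Nr4a factors shared their top Notch3+/+ pool. All 5 were highest in Notch3+/+ replicate 1 within their genotype, and in the Notch3-/- arteries all 5 were lowest in replicate 3, the pool with the most Fos. Nr4a1, an orphan nuclear receptor induced by growth factors and stress, read 8.57, 8.50 and 8.23 in the Notch3-/- pools, against 9.00, 7.89 and 7.63 in the Notch3+/+ pools. Its Notch3+/+ replicate 1 was the highest of all pools and stood 2.36-fold above the mean of the other Notch3+/+ pools. Nr4a3 read 7.67, 8.04 and 7.56 in Notch3-/- arteries, against 8.09, 7.55 and 7.00 in Notch3+/+ arteries. Nr4a2 read 6.55, 6.83 and 6.35 in Notch3-/- arteries, against 6.60, 6.08 and 5.96 in Notch3+/+ arteries. Egr1, the zinc finger factor most used as a sign of recent stimulation, read 9.28, 9.33 and 9.11 in Notch3-/- arteries, against 9.53, 8.97 and 9.03 in Notch3+/+ arteries. By the brightest probe set, in each of Egr1, Nr4a1, Nr4a2 and Nr4a3 the Notch3-/- pools and Notch3+/+ replicate 1 all lay above Notch3+/+ replicates 2 and 3. The genotype differences of the 5 genes ran from 0.00 for Egr3 to 0.36 (SE 0.19) for Nr4a2, with adjusted p of 0.519 or more in limma.

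**Figure D2:**
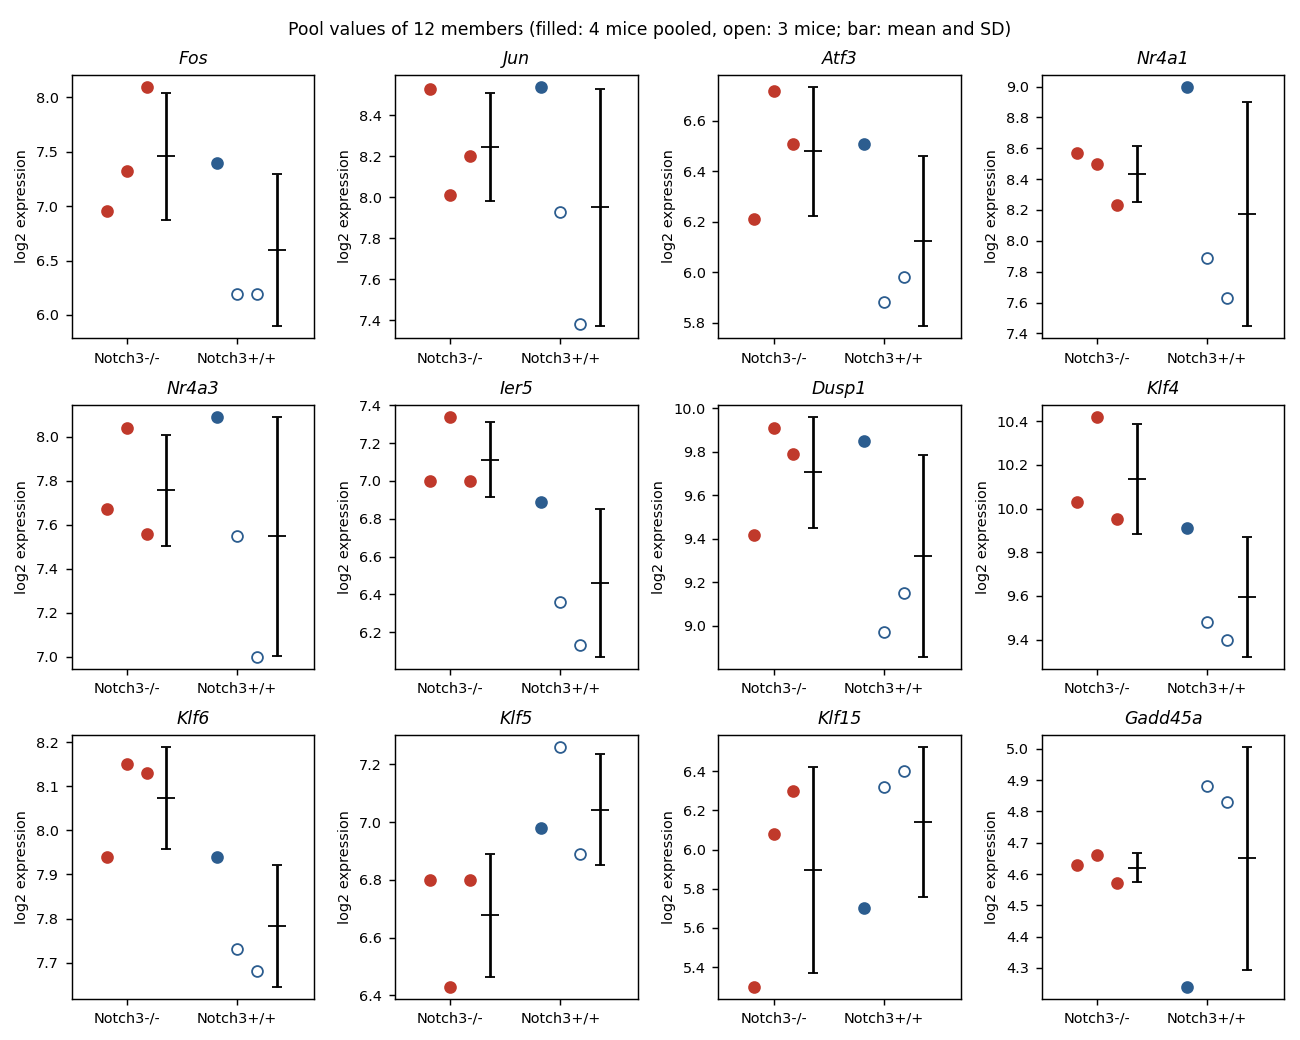
Each panel gives the log2 level of 1 gene in the 3 Notch3-/- pools (red) and the 3 Notch3+/+ pools (blue), in replicate order, with filled points for pools of 4 mice, open points for pools of 3 mice, and the mean with its SD as a bar; vertical axes differ between panels and do not start at 0. In Fos, Jun, Atf3, Nr4a1, Nr4a3, Ier5, Dusp1, Klf4 and Klf6 the filled points all lie above the open ones, and in Klf15 and Gadd45a below them.

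Promoter windows are shown for Fos, Nr4a1, Btg2 and Ier5, the members with the widest range over pools among those with a window in the table used. They are RefSeq sequences of build GRCm38.p6, from 250 bases before to 50 bases after the gene's start, in the direction of transcription. Capitals mark matches on either strand to the core of the cyclic AMP response element, TGACG, bound by CREB and ATF proteins, and to TATAA, the TATA core. A match on the opposite strand reads as the reverse complement. The sites are given by the distance of their first base from the start.
Fos, chr12:85473640-85473939, plus strand: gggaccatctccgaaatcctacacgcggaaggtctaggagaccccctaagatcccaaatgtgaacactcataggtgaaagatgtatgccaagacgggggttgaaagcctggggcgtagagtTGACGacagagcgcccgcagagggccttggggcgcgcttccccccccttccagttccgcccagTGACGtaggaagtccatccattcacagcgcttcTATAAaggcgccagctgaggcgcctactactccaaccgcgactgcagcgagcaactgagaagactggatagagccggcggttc
Nr4a1, chr15:101266596-101266895, plus strand: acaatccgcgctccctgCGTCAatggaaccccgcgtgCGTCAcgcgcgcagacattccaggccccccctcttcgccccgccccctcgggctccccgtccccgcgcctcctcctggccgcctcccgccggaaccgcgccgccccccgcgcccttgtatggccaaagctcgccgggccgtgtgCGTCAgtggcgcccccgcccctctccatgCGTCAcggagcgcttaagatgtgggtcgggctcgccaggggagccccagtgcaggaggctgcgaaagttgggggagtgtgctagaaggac
Btg2, chr1:134079106-134079405, minus strand: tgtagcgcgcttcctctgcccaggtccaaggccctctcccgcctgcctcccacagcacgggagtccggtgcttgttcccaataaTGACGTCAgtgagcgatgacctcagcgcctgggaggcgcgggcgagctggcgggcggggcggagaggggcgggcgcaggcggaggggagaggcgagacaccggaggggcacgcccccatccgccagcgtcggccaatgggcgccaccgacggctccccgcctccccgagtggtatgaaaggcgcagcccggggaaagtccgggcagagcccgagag
Ier5, chr1:155099587-155099886, minus strand: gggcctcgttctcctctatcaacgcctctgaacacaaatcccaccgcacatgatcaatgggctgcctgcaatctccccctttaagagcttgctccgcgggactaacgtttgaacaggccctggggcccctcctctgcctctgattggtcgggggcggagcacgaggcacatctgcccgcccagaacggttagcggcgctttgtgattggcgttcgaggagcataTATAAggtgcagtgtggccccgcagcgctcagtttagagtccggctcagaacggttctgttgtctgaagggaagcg

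The Fos window held the response element core at -129 and -66 and a TATA core at -33. The Nr4a1 window held 4 cores, at -233, -213, -69 and -40, all on the opposite strand and without a TATA match. In Btg2 the matches at -166 and -163 lay on opposite strands and overlapped, which makes 1 full palindromic element. Ier5 had a TATA core at -26 and no response element core. Over the whole table, 34 of the 44 members had windows, 44 in number because Csrnp1, Maff and Sgk1 had several; Arc, Cebpd, Egr1, Egr3, Fosl1, Ier2, Klf5, Klf10, Myc and Sik1 were not matched. TGACG was found in 24 of these 44 windows (54.5%), from 20 genes, against 20.8% of all 32851 windows. TATAA was found in 38.6% of the members' windows and 24.9% of all. The Klf motif CACCC was in 63.6% of the members' windows and 57.5% of all, the AP-1 motif TGANTCA in 4.55% and 7.81%, and the CArG box, bound by serum response factor, in 4.55% (Dusp5 and Zfp36) and 1.63%. A match is not evidence of binding, and the windows end 250 bases before the start.

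The other immediate early genes did not move as one. Ier5, a nuclear protein induced by growth factors and stress, read 7.00, 7.34 and 7.00 in the Notch3-/- pools, against 6.89, 6.36 and 6.13 in the Notch3+/+ pools. Every Notch3-/- pool lay above every Notch3+/+ pool, by 0.11 at the closest. Its difference was 0.65 (SE 0.20), a fold of 1.57, with an unadjusted p of 0.0114 and an adjusted p of 0.298 in limma, the smallest of all members by their brightest probe set. Myc, a driver of growth, read 5.91, 5.35 and 5.95 in Notch3-/- arteries, against 6.08, 5.62 and 5.57 in Notch3+/+ arteries. Ier2 was highest in Notch3+/+ replicate 1 at 7.66 and lowest in Notch3-/- replicate 2 at 6.97. Ier3, an inhibitor of apoptosis, and the nuclear protein gene Csrnp1 had ranges of 0.41 and 0.22. Arc, a gene of active neurons, was dim in every pool, from 2.87 to 3.02 in Notch3-/- and 3.08 to 3.17 in Notch3+/+ arteries.

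The Klf factors split. Klf4 read 10.03, 10.42 and 9.95 in Notch3-/- arteries, against 9.91, 9.48 and 9.40 in Notch3+/+ arteries. The genotypes did not overlap, but Notch3+/+ replicate 1 was within 0.04 of the lowest Notch3-/- pool. Klf4 differed by 0.54 (SE 0.17), a 1.45-fold higher level in Notch3-/- arteries, and its adjusted p in limma was 0.328. Klf6, which is induced by vascular injury, read 7.94, 8.15 and 8.13 in Notch3-/- arteries, against 7.94, 7.73 and 7.68 in Notch3+/+ arteries. The lowest Notch3-/- and the highest Notch3+/+ pool of Klf6 were equal, and its difference was 0.29 (SE 0.10, adjusted p = 0.369 in limma).

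Klf2 had its highest level in Notch3+/+ replicate 1 as well, at 9.41, against 8.76 and 8.69 in the other Notch3+/+ pools, and read 9.18, 9.12 and 8.64 in the Notch3-/- pools, a difference of 0.03 (SE 0.22). Klf5 ran the other way between genotypes, at 6.80, 6.43 and 6.80 in Notch3-/- arteries, against 6.98, 7.26 and 6.89 in Notch3+/+ arteries. Every Notch3-/- pool of Klf5 lay below every Notch3+/+ pool, with a difference of -0.37 (SE 0.14) and an adjusted p of 0.398 in limma. By the brightest probe set, the glucocorticoid-induced pair had the mirror image of the Fos pattern in Notch3+/+ arteries. Klf15 read 5.30, 6.08 and 6.30 in Notch3-/- arteries, against 5.70, 6.32 and 6.40 in Notch3+/+ arteries, and Klf9 read 10.39, 10.65 and 10.77 in Notch3-/- arteries, against 10.62, 10.84 and 10.91 in Notch3+/+ arteries. Both genes were lowest in replicate 1 of each genotype. In Notch3-/- arteries there was no mirror image, since both rose from replicate 1 to replicate 3, as Fos did. With each genotype's mean taken out, their correlation with Fos over the 6 pools was 0.0025 for Klf9 and -0.0014 for Klf15. Klf10, an early gene of TGF-beta signalling, kept within 7.97 to 8.31.

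Among the feedback inhibitors, Dusp1, a phosphatase that inactivates MAP kinases, was among the widest-ranging. It read 9.42, 9.91 and 9.79 in the Notch3-/- pools, against 9.85, 8.97 and 9.15 in the Notch3+/+ pools, so that Notch3+/+ replicate 1 again lay among the Notch3-/- pools. Its difference was 0.38 (SE 0.23, adjusted p = 0.572 in limma). Dusp2, Dusp5 and Dusp6, phosphatases of the same family, had differences of -0.03, -0.12 and -0.32. Dusp6, which acts on ERK, was at 7.27 and 7.27 in Notch3-/- replicates 1 and 3 and at 6.49 in replicate 2, against 7.23 to 7.48 in the Notch3+/+ pools.

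Btg2, an antiproliferative gene, behaved likewise, at 7.21, 6.23 and 7.31 in Notch3-/- arteries, against 7.56, 7.21 and 7.06 in Notch3+/+ arteries. Notch3-/- replicate 2, the array apart in the principal components, thus supplied the lowest value of Btg2 and Dusp6. On the second Btg2 probe set that array read 6.33, beside 6.33 and 6.39 in the other Notch3-/- pools. Socs3, an inhibitor of cytokine signalling, read 5.92, 5.86 and 6.02 in Notch3-/- arteries, against 5.82, 5.70 and 5.77 in Notch3+/+ arteries, a small shift of 0.17 (SE 0.08, adjusted p = 0.484 in limma) without overlap. Zfp36, which destabilises short-lived mRNAs, Btg1 and the NF-kappaB inhibitor gene Nfkbia had differences of -0.02, -0.02 and 0.13.

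The stress genes of the Gadd45 family differed among themselves. Gadd45a, a cell cycle inhibitor induced by DNA damage, read 4.63, 4.66 and 4.57 in Notch3-/- arteries, against 4.24, 4.88 and 4.83 in Notch3+/+ arteries, so its lowest pool was the Notch3+/+ pool with the most Nr4a1. Gadd45b was highest in that pool, at 6.31, and Gadd45g had a range of 0.15. Among the remaining members, the C/EBP factor genes Cebpb and Cebpd had differences of 0.00 and 0.05. Sgk1, the serum- and glucocorticoid-induced kinase, read 8.47, 9.17 and 9.06 in Notch3-/- arteries, against 8.78, 8.45 and 8.67 in Notch3+/+ arteries, with overlap. The salt-inducible kinase gene Sik1 read 4.22, 4.46 and 4.30 in Notch3-/- arteries, against 4.66, 4.64 and 4.51 in Notch3+/+ arteries. Its pools did not overlap, and the difference was -0.28 (SE 0.09, adjusted p = 0.348 in limma). The small GTPase gene Rhob kept within 10.38 to 10.69.

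With each genotype's mean taken out, the 41 members above the filter had a median pairwise Pearson correlation of 0.22 over the 6 pools, against 0.0018 over all pairs of 12732 genes. This is a description, since all genes share the same 6 arrays and members share stimuli. Of the 820 member pairs, 31.3% correlated at 0.5 or more, against 22.1% of all pairs. Dusp1 (0.90), Nr4a1 (0.88), Egr1 (0.86), Klf6 (0.86), Ier5 (0.85), Atf3 (0.84) and Fos (0.82) followed the mean of the other members most closely, and 19 of 41 (46.3%) reached 0.5, against 15.1% of all genes set against the members' mean. Gadd45a, at -0.98, was the 1 member at or below -0.5, where 19.3% of all genes were, next to Klf15 at -0.50, which falls just short of it, Cebpb at -0.47 and Klf9 at -0.47. The shared movement rested on 1 pool: without Notch3+/+ replicate 1 the median pairwise correlation was 0.01, and it was 0.19 to 0.33 without any other single array.

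The same pool is the Notch3+/+ pool that matched the Notch3-/- pools in number of mice. In 13 of the 44 members (29.5%) all 4 pools of 4 mice lay above both pools of 3 mice, against 7.78% of all genes: Fos, Jun, Atf3, Egr1, Nr4a1, Nr4a2, Nr4a3, Ier5, Csrnp1, Klf4, Klf6, Dusp1 and Socs3. In Klf9, Klf15 and Gadd45a (6.82%, against 11.6% of all genes) they lay below. This comparison was added after the values were seen and carries no test. The median member differed by 0.08 between the Notch3-/- pools and Notch3+/+ replicates 2 and 3, and by -0.07 between the Notch3-/- pools and Notch3+/+ replicate 1. Nr4a1, for example, averaged 8.43 ± 0.18 in Notch3-/- arteries (SD, n = 3), which was 0.57 below Notch3+/+ replicate 1, and Fos averaged 7.46 ± 0.58 (SD, n = 3), which was 0.06 above it. Because 1 Notch3+/+ pool held 4 mice, number of mice and any other property of that pool cannot be told apart, and whether pool size had a part in the levels was not tested.

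In Notch3+/+ arteries, markers of white blood cells were also higher in replicate 1. Notch3+/+ replicate 1 exceeded Notch3+/+ replicates 2 and 3 for each of 10 macrophage and leukocyte markers and each of 7 mast cell markers. In 7 and 6 of them all 4 pools of 4 mice lay above both pools of 3. Over all genes above the filter these shares were 31.0% and 9.60%. Replicate 1 exceeded both for 0 of 8 smooth muscle, 3 of 10 endothelial and 2 of 8 fibroblast markers. It did so for 2 of 6 adipocyte, 3 of 9 skeletal muscle and 2 of 6 Schwann cell and nerve markers. Per pool, the macrophage and leukocyte markers deviated from their 6-pool means by a median of 0.46, 0.09 and 0.26 in the Notch3-/- pools, against 0.09, -0.16 and -0.72 in the Notch3+/+ pools. The mast cell markers deviated by 0.70, 0.12 and 0.34 in the Notch3-/- pools, against 0.28, -0.48 and -0.88 in the Notch3+/+ pools. All members together deviated by a median of -0.01, 0.04 and 0.06 in the Notch3-/- pools. The role groups differed in these pools. The AP-1 group deviated by -0.06, 0.03 and 0.02 in Notch3-/- replicates 1, 2 and 3, and the Egr and Nr4a group by 0.155, 0.20 and -0.09. The summed signal of the macrophage and leukocyte list, as log2, was 11.23 to 11.64 in Notch3-/- pools, against 10.56 to 11.29 in Notch3+/+ pools. That of the mast cell list was 10.51 to 11.28 in Notch3-/- pools, against 9.69 to 10.81 in Notch3+/+ pools. All 17 passed the level filter. Endothelial markers, relevant to Klf2 and Klf4, ran the opposite way between genotypes, with 1 of 10 differences above 0 and a median difference of -0.25. The part of these cells in the members' levels was not tested.

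**Figure D3:**
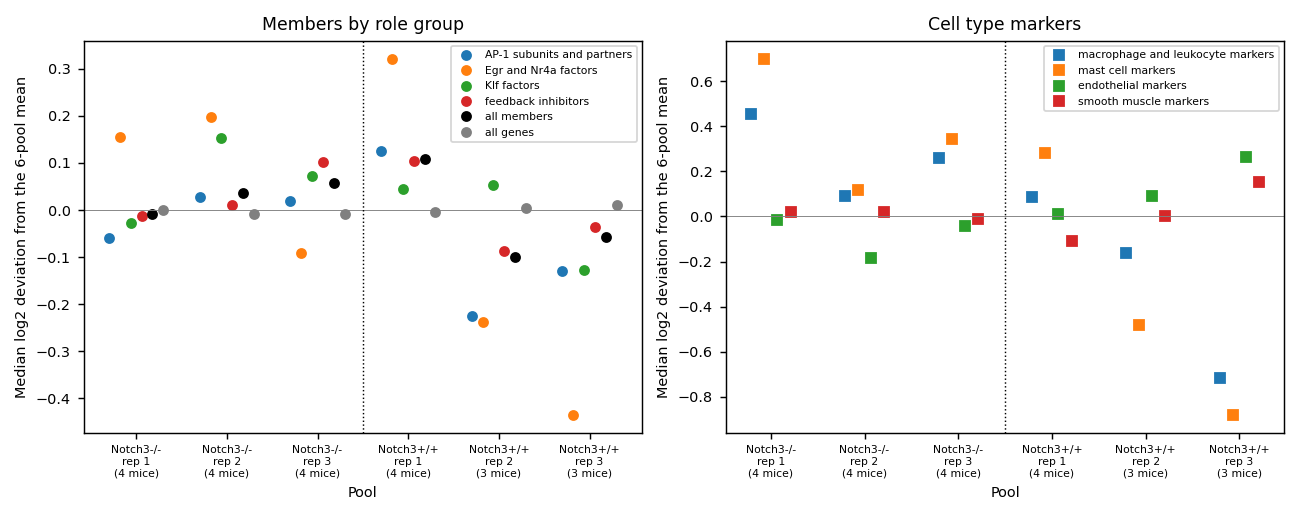
Points give, for each pool, the median log2 deviation from the 6-pool mean over the members of a role group, all members and all genes (left) and over the markers of 4 cell types (right); points of a pool are set side by side, and the dotted line divides Notch3-/- from Notch3+/+ pools. All members together lie at 0.11 in Notch3+/+ replicate 1 and at -0.10 and -0.06 in replicates 2 and 3, and the macrophage and mast cell markers are also lowest in those 2 pools.

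Between genotypes, 0 of the 41 members passed the adjusted threshold of 0.05 in limma, where 0.322% of the 12732 genes passed. Their adjusted p-values ran from 0.298 to 1. Counting all 73 member probe sets above the filter, 0 passed, where 0.252% of all 27027 probe sets did. An unadjusted p under 0.05 was found for 5 members (Ier5, Klf4, Sik1, Klf6 and Klf5), or 12.2% of those tested, against 11.9% of all genes, so the members' share is near the background. Pools of the genotypes did not overlap in 5 members, again 12.2%, against 17.3% of all genes. Higher in all Notch3-/- pools were Ier5, Klf4 and Socs3 (9.46% of all genes were), and lower were Klf5 and Sik1 (7.88% of all genes). The dim genes Fosb and Arc also did not overlap, higher and lower, but were not tested.

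The differences of the 44 members had a median of 0.03, with 25 above 0 and 18 below, beside a median of -0.02 over all genes. Over the 41 tested it was 0.03, beside -0.0033 over the genes tested. Without Notch3+/+ replicate 1, 18 members did not overlap, where 31.0% of all genes did not, and 10 had an unadjusted p under 0.05, where 12.1% of all genes did, yet 0 passed the adjusted threshold. The genotype differences of Jun, Atf3, Dusp1, Nr4a1, Nr4a2 and Nr4a3 were above 0 over all pools and below 0 when the Notch3-/- pools were set against Notch3+/+ replicate 1 alone, by the brightest probe set. In that comparison Ier5 and Klf4 had a difference of 0.22 each on the brightest probe set, but -0.34 and -0.0167 on the other Ier5 sets and -0.0133 on the other Klf4 set. Klf5 and Sik1 had differences of -0.30 and -0.33.

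**Figure D4:**
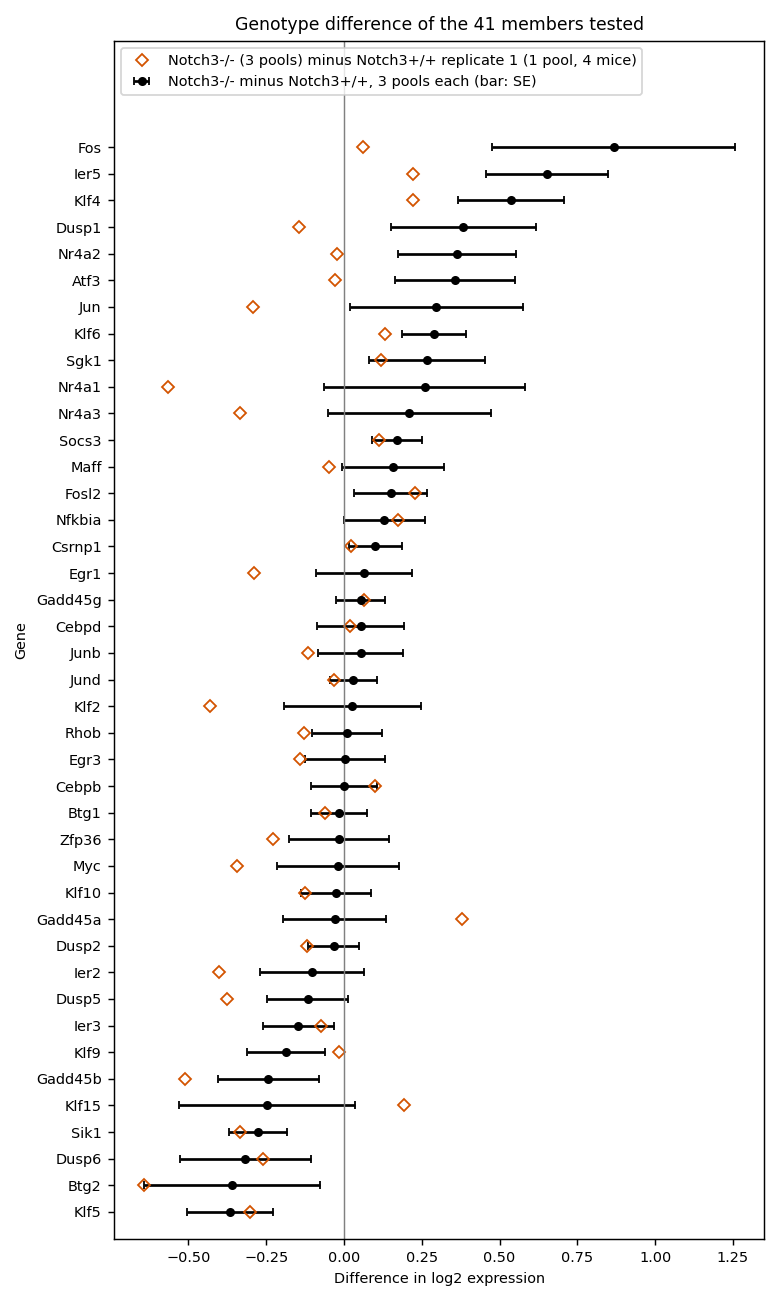
For each of the 41 members tested, the black point is the Notch3-/- minus Notch3+/+ difference in log2 expression over 3 pools each with its SE from limma, and the open diamond is the difference of the Notch3-/- mean from Notch3+/+ replicate 1 alone. Black points run from -0.37 for Klf5 to 0.87 for Fos; the diamonds of Jun, Nr4a1 and Nr4a3 lie below 0 while their black points lie above it.

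Probe sets of a gene disagreed in places. Of 17 members with several tested probe sets, 10 had differences of both signs. Socs3 had 2 further probe sets with larger differences, 0.56 (SE 0.10, adjusted p = 0.0983 in limma) and 0.54 (SE 0.14, adjusted p = 0.248 in limma), against 0.17 on the brightest. Their names end in _x_at, which Affymetrix gives to sets whose probes may bind other transcripts. A second Btg1 probe set read 9.42, 9.95 and 9.64 in Notch3-/- arteries, against 9.27, 9.07 and 8.99 in Notch3+/+ arteries, a difference of 0.56 (adjusted p = 0.24 in limma), whereas the brightest gave -0.02. Klf6 ran from -0.07 to 0.29 over 4 sets and Klf9 from -0.44 to 0.09 over 6. Nr4a2 ran from -0.13 to 0.36 over 5 sets and Nr4a3 from -0.16 to 0.21 over 2. Only on the brightest set of Nr4a2 and of Nr4a3 did all pools of 4 mice lie above both pools of 3. Not every Klf9 set was lowest in replicate 1 among the Notch3+/+ pools. Ier5 had differences of 0.48 and -0.06 on its other sets, and the genotypes overlapped on both, so only its brightest set separated them. Klf4, Klf5 and Jun kept 1 sign between genotypes, with second values of 0.30, -0.26 and 0.34. On the second Klf4 set the genotypes overlapped, with the lowest Notch3-/- pool at 8.81 and Notch3+/+ replicate 1 at 8.94. On the second Klf5 set they did not overlap. Set against Notch3+/+ replicate 1 alone, the second Jun set gave 0.0033, against -0.29 on the brightest. Egr3 gave 0.67 on a second set, which read 5.37, 6.42 and 4.99 in Notch3-/- arteries, against 5.67, 4.53 and 4.58 in Notch3+/+ arteries, where Notch3+/+ replicate 1 again lay among the Notch3-/- pools.

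Further genes of the early response gave no call. Of 35 further early response genes tested, 0 passed in either direction, 6 had an unadjusted p under 0.05 (11.9% of all genes did), and the median difference was 0.02. Hspa1b, an inducible heat shock protein gene, read 8.53, 8.93 and 8.79 in Notch3-/- arteries, against 8.37, 8.01 and 7.97 in Notch3+/+ arteries, a difference of 0.63 (SE 0.14, adjusted p = 0.194 in limma). Hspa1a (0.46, adjusted p = 0.193) and the mRNA-destabilising Zfp36l1 (0.36, adjusted p = 0.266) also lay higher in all Notch3-/- pools. In this list 20 of 35 genes were higher in Notch3+/+ replicate 1 than in both other Notch3+/+ pools, where 31.0% of all genes above the filter were. In 8 of the 35 all pools of 4 mice lay above those of 3, where 9.60% of all genes did. One of the 8, named after its values were seen, is the matricellular gene Ccn2, at 11.00, 11.26 and 11.09 in Notch3-/- arteries, against 11.12, 10.05 and 9.88 in Notch3+/+ arteries. Of the 38 genes listed, Ptgs2, Il6 and Dusp4 lay below the level filter and were not tested. Ptgs2, also named after its values were seen, ran the other way. It read 2.77, 3.55 and 3.48 in Notch3-/- arteries, against 3.51, 4.37 and 4.73 in Notch3+/+ arteries.

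Of 10 other Klf and Sp genes tested, 0 passed. Klf3 differed by 0.36, Klf11 by -0.21 and Klf14 by 0.19, with adjusted p from 0.357 to 0.546 in limma. Of 22 upstream kinases and transcription factors, 0 passed, and 5 were higher in Notch3+/+ replicate 1 than in both other Notch3+/+ pools, a smaller share than the 31.0% of all genes. Mef2c, a muscle transcription factor, read 7.82, 7.20 and 7.98 in Notch3-/- arteries, against 8.27, 8.38 and 8.52 in Notch3+/+ arteries, without overlap (-0.72, SE 0.19, adjusted p = 0.251 in limma). The kinase gene Rps6ka3 differed by 0.36 and Stat3 by -0.28. Of 16 glucocorticoid response genes, 5 of them members, 0 passed, and the median difference was -0.02. Glul, the glutamine synthetase gene, differed by 0.39 (adjusted p = 0.169 in limma) and the metallothionein genes Mt2 and Mt1 by -0.34 and -0.36.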

How the data were processed

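The submitters' processing notes name RMA, which corrects background, sets arrays to shared quantiles and summarises probes. The values the authors deposited are on a log2 scale, as judged by their span of 1.38 to 13.38 and array medians from 4.50 to 4.57. No version of RMA was given in the sources used here. RMA compresses differences of dim probe sets, and no detection calls were used.

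Per the labels' protocols, RNA was extracted with Trizol, and 2.5 µg was labelled. Of 45101 probe sets, 64 controls were left out. The platform annotation gave 34945 of the rest 1 symbol, 932 several and 9160 none; 34741 were matched by gene number to RefSeq (GRCm38.p6), which updated symbols and supplied promoter windows. Probe sets with a 6-array mean at or above the 40th percentile (27027) entered limma (version 3.58.1, R 4.3.3; lmFit, eBayes, genotype as the only term, two-sided), with Benjamini-Hochberg adjustment over all 27027 and a threshold of 0.05. Pool values, counts and correlations carry no test. On simulated data for this comparison (27027 probe sets, 50 changed per fold size), 52% of 1.5-fold, 72% of 2-fold and 98% of 4-fold changes were called. The changed sets were drawn from all probe sets tested. The 41 members tested had a wider spread, with a median SD within genotypes of 0.23, against 0.12 over all genes tested. These rates therefore do not measure how often a change in a member would be called. With 3 arrays per genotype, precision is limited.

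The members and gene lists were chosen with earlier results of these data known. Members named are those with an unadjusted p under 0.05, the 15 widest ranges over pools, and the 2 widest-ranging and the most different of each role group; other members are named to complete the account. From each further list, the 3 smallest p-values are named. Alternatives were level filters, variance model, normalization, centring, array weights, weights by mice, replicate block, mean of probe sets, threshold and omission of each array.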

Additional observations from a re-analysis of the deposited data

How the results depend on the processing

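No member probe set passed under 15 of 17 alternatives. With array weights 4 passed, 2 of Socs3, 1 of Btg1 and 1 of Sik1 (-0.32, adjusted p = 0.0417 in limma), and 1 passed at a threshold of 0.10 (Socs3). The share of all probe sets passing under these 2 settings is not given here. These counts therefore cannot be read as a result about the members. The weights were 0.60, 0.29 and 3.04 for the Notch3-/- arrays and 0.76, 2.94 and 0.84 for the Notch3+/+ arrays. With the replicate number as a block 0 passed, and 6 members had an unadjusted p under 0.05. Beyond the number, the labels do not link same-numbered pools. Deviations of same-numbered pools from the genotype means correlated at 0.24, 0.05 and -0.07 over probe sets for numbers 1, 2 and 3. These correlations cannot tell whether such pools were handled together. The cause of differences between settings was not tested. Leaving out 1 array gave 0 probe sets passing, 1 (without Notch3+/+ replicate 2) to 10 members at an unadjusted p under 0.05, 5 to 18 members without overlap, and a median pairwise correlation from 0.0144 to 0.33. The counts were 10 and 11 without Notch3-/- replicate 1, and 3 at an unadjusted p without Notch3+/+ replicate 3. Array weights gave 10 members at an unadjusted p under 0.05. Averaging a gene's probe sets gave 2, and 1 without overlap. Over all genes tested, 11.9% had an unadjusted p under 0.05 and 17.3% did not overlap with all 6 arrays. Without Notch3+/+ replicate 1 these shares were 12.1% and 31.0%. They are not given for the other settings, so the members' counts there have no background beside them. The median change ran from -0.0067 to 0.09 over the omissions and was -0.0733 with the number of mice as a term, an alternative chosen after seeing the data.

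With that term, which sets the Notch3-/- pools against the Notch3+/+ pool of 4 mice, the change was -0.29 for Jun, -0.03 for Atf3, -0.57 for Nr4a1, -0.0233 for Nr4a2, -0.33 for Nr4a3, -0.14 for Dusp1, -0.43 for Klf2, 0.19 for Klf15 and 0.38 for Gadd45a, each of opposite sign to the reported one. Myc changed sign to 0.01 with centring and 0.21 with array weights. Klf2 read -0.0053 after another quantile normalization, -0.10 with array weights and -0.019 with weights by mice, which gave 0.011 for Gadd45a. Over the omissions the ranges that crossed 0 were -0.0117 to 0.67 for Nr4a1, -0.0633 to 0.48 for Nr4a3, -0.13 to 0.17 for Myc, -0.10 to 0.25 for Klf2, -0.47 to 0.05 for Klf15, -0.23 to 0.085 for Gadd45a and -0.0417 to 0.22 for Cebpd. Of 354 values for 21 named members, 325 kept direction and side of the threshold, and 10 members never changed sign. The dimmest members, near the level filter, have the least signal over background.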
